A study of Mus musculus with 6 samples.

Results

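YAP5SAcm is the name the authors gave to 1 of their cardiomyocyte clusters, and it carries the name of the mutant. The cluster also held some cells of Control hearts, and the cells of both genotypes inside it were compared here. Members were all cells that the authors' deposited annotation puts in YAP5SAcm, 995 of 21706 cells, split by the genotype of their library. The YAP5SA libraries gave 896 of them, with 481 from the enriched library and 212 and 203 from tissue-1 and tissue-2. The Control libraries gave 99, with 16 from the enriched library, 50 from tissue-2 and 33 from tissue-3.

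YAP5SA mice (Yap5SA+/tg; Myh6-MCM) carried a transgene for YAP that the kinases Lats1/2 cannot phosphorylate, switched on in cardiomyocytes by MerCreMer, a tamoxifen-dependent Cre recombinase under the cardiomyocyte promoter of Myh6. Control mice (Myh6-MCM) carried MerCreMer without the transgene. All mice were adult and received tamoxifen, and all hearts were digested with collagenase. RNA of single cells was counted with Drop-seq, which tags each molecule with a unique molecular identifier (UMI). Each genotype had 3 libraries, 1 from enriched cardiomyocytes and 2 from dissociated tissue. The labels do not say how many animals each library holds, so p-values measure the spread between libraries, which may be technical. YAP is the coactivator that the Hippo kinases hold out of the nucleus; with TEAD transcription factors it turns on genes of growth and the cytoskeleton. Adult cardiomyocytes rarely divide, and their RNA is dominated by contractile and mitochondrial genes.

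The cells differed by genotype in more than origin. YAP5SA members had medians of 3251, 2107.5 and 2690 UMIs per cell in the enriched, tissue-1 and tissue-2 libraries, against 1586, 1987.5 and 1806 UMIs in the Control enriched library, Control tissue-2 and Control tissue-3. Values are given in these orders of libraries throughout. Mitochondrial genes held medians of 8.74%, 6.83% and 8.42% of a YAP5SA cell's UMIs and 33.96%, 13.4% and 24.3% of a Control cell's. The medians per library averaged 7.999% ± 1.02 in YAP5SA and 23.9% ± 10.3 in Control (SD, n = 3 libraries each), with no overlap. The difference of -15.87 points had p = 0.1667 in an exact two-sided permutation test within preparations, the smallest p that its 12 arrangements allow. In the other cardiomyocyte clusters, CM1 to CM3, the medians of the same libraries overlapped, at 10.8%, 12.3% and 10.2% in YAP5SA and 14.2%, 7.80% and 16.6% in Control. In all, 3996642 UMIs stood behind the YAP5SA members and 257068 behind the Control members, and the 16 cells of Control enriched held 27054. The members of different libraries shared 0 cell barcodes.

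**Figure D1:**
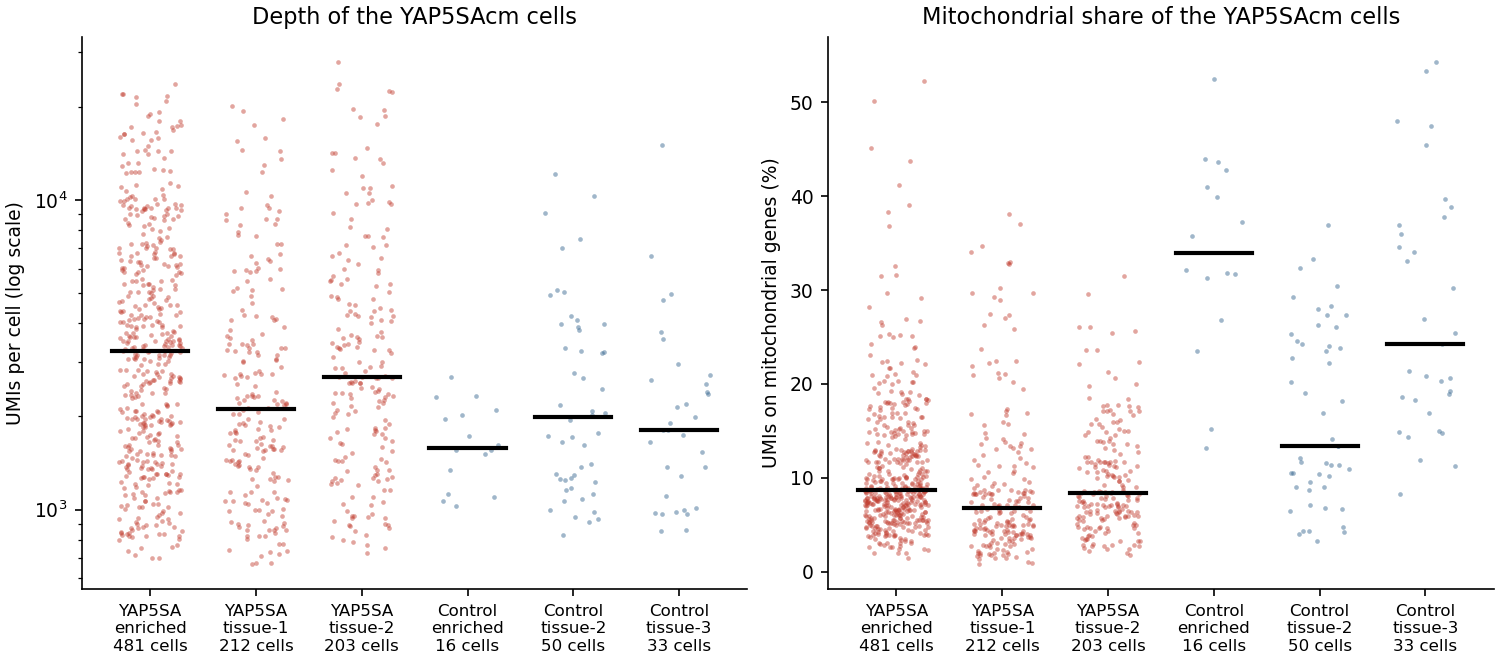
UMIs per cell on a log scale (left) and mitochondrial percent of UMIs (right) for the 995 YAP5SAcm cells, 1 point per cell and a black line at each library's median, with YAP5SA libraries in red and Control libraries in blue. The median mitochondrial share of each Control library, from 13.4% up, lies above that of each YAP5SA library.

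The deposited annotation also keeps an earlier grouping of the same cells, and there the genotypes lay apart. Of the 896 YAP5SA members, 880 had been in groups named Y5SA1 or Y5SA2, against 2 of the 99 Control members. Of the Control members, 74 had been in the group CM (4, 47 and 23 by library) and 12 in the endothelial group EC, 10 of them among the 16 cells of Control enriched. Markers that define cardiomyocytes were abundant in both genotypes. Their 14 genes summed to 40546, 34320 and 28980 CPM (a gene's UMIs in a library's members, scaled to a common total of UMIs) in YAP5SA members and to 72669.5, 52957 and 72011.5 CPM in Control members. The 12 endothelial markers summed to 1382, 638 and 464 CPM in YAP5SA members, against 4066, 233 and 3317 CPM in Control members. In endothelial cells of the same 6 libraries they summed to 17868 to 27739 CPM. The 13 fibroblast markers summed to 1307, 719 and 912 CPM in YAP5SA members and to 887, 800 and 5631 CPM in Control members. The 14 macrophage markers overlapped between genotypes, with 740, 479 and 1177 CPM in YAP5SA members and 333, 506 and 775 CPM in Control members, where Fcgr1 and Mertk were at 0. Pericyte markers reached 1848 CPM in Control enriched and lay between 75.7 and 394 CPM in the other 5 libraries. The part of other cells' RNA in the results below was not tested. In pooled counts, fewer cells of a kind and less RNA per cell cannot be told apart.

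The genes tied to the genetic model came first. Yap1 was low and its libraries overlapped, with 73, 41 and 52 UMIs in YAP5SA members (31.6, 55.0 and 55.5 CPM) and 0, 6 and 3 UMIs in Control members (0, 41.0 and 35.8 CPM). Its log2 fold change was 0.30 (SE 0.61, edgeR adjusted p = 0.854), which did not pass the test. The labels do not say whether transgene RNA is counted as Yap1. Egfp, the gene of a green fluorescent protein, had 143 and 131 UMIs in members of the tissue-1 and tissue-2 libraries of YAP5SA and 0 in each Control library. It also had 0 UMIs in all cells of YAP5SA enriched, a library annotated in another way, so it was not tested. Control tissue-3 was annotated like YAP5SA enriched, so the 0 UMIs of these libraries may not show that Egfp RNA was absent. Esr1 encodes the estrogen receptor, of which MerCreMer holds the hormone-binding domain. It had 9.94, 9.38 and 1.07 CPM in YAP5SA members and 591, 6.84 and 227 CPM in Control members. Control tissue-2 thus lay with the YAP5SA libraries for Esr1. In CM1 to CM3 Control tissue-2 had 33.2 CPM, against 891 and 706 CPM in Control enriched and Control tissue-3. YAP5SA cells of CM1 to CM3 had 76.0, 79.7 and 15.5 CPM. Cre had 0 UMIs in all members.

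Inside the cluster the genotypes still differed in many genes. The genes called higher in YAP5SA members included YAP targets, Hippo components and cell division, actin cytoskeleton and matrix genes. Those called lower included contractile, calcium handling, fatty acid and mitochondrially encoded genes. Of 6070 genes tested on UMIs summed per library, 465 passed a Benjamini-Hochberg adjusted p of 0.05 in edgeR's quasi-likelihood test, 7.66% of all tested. Of these, 309 (5.09%) were higher and 156 (2.57%) lower in YAP5SA members, and in 431 the libraries of one genotype all lay beyond those of the other. Without regard to the test, 19.9% of tested genes lay higher without overlap and 8.04% lower. The median log2 fold change of all tested genes was 0.16, and it was 0.46 with library totals alone as scaling, which called 646 genes, 545 of them higher. Fold changes below are log2, YAP5SA over Control. The cells were clustered on these same transcripts, so the differences are those among cells that the clustering had placed together.

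The number of calls moved with the libraries. Without YAP5SA enriched, tissue-1 or tissue-2, edgeR called 0 genes in each case, with 757, 362 and 315 genes at an unadjusted p under 0.05 and 72, 66 and 53 genes called by DESeq2. The main calls tested in those fits, 344, 288 and 291 genes, all kept their direction. With the 2 tissue libraries of each genotype alone 91 genes were called, 89 of them among the main calls. Without Control enriched 279 genes were called and without Control tissue-3 241. With either enriched library left out, the preparation term took up the other, so the genotype effect rested on the tissue libraries. Leaving out Control tissue-2 gave 549. A gene passed the filter on low counts through its level in any 3 libraries, so a gene absent from Control members could enter through YAP5SA alone. The counts of list members below describe the lists and are not tests of them.

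Of the 309 genes called higher, 67 had no Control UMI at all, among them the 10 with the highest fitted fold changes that the naming rule took. Fitted folds over 0 counts are not measured sizes, so these 10 are given by their lower bounds, and their order among all genes is not known. Cemip, a protein of hyaluronan breakdown, had 308, 1013 and 968 CPM in YAP5SA members and 0 UMIs in every Control library. Against a floor of 3 UMIs over the Control members it was at least 50.9-fold higher (edgeR adjusted p = 4.62e-07). Rrm2, a subunit of ribonucleotide reductase, was at least 8.96-fold higher, with 85.2, 126 and 135 CPM in YAP5SA members (edgeR adjusted p = 0.000195). Col4a3, a chain of basement membrane collagen, was at least 8.75-fold higher on the same floor, with 83.9, 139 and 117 CPM. Nog, noggin, an inhibitor of BMP signals, was at least 5.62-fold higher, and Adamts9, a protease of matrix proteoglycans, at least 6.67-fold higher. The others of these 10 genes, Snx30 (counted together with the overlapping Gm12543), 1700037H04Rik, Peak1os, Mamld1 and Cmtm5, were at least 5.42-fold to 7.42-fold higher.

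Among genes of the pathway itself, 12 of 25 tested YAP targets rose and 0 fell, of 28 found, against 5.09% of all genes called higher. Of these 25 targets, 4 had no Control UMI and passed the filter on low counts through YAP5SA libraries alone. The list's median was 2.10, or 2.02 with members at 0 in Control set to their bound, against 0.16 for all genes. Amotl2, an angiomotin that binds YAP, had 393, 680 and 670 CPM in YAP5SA members and 111, 198 and 23.9 CPM in Control members (log2 fold change 2.10, SE 0.59, edgeR adjusted p = 0.0193). Crim1, a transmembrane protein that binds BMPs, had 324, 385 and 511 CPM in YAP5SA members and 0, 75.2 and 95.4 CPM in Control members (log2 fold change 2.38, SE 0.61, edgeR adjusted p = 0.00872). In both genes the genotypes did not overlap. Dlc1 rose by 2.92, and Asap1, which acts on Arf GTPases, by 3.21. Of 20 Hippo components tested, 5 rose and 0 fell, with a median of 1.36. They were the transcription factor Tead1 (2.02), the kinase gene Lats2 (1.96, counted with the overlapping Xpo4), Amot (3.34), Amotl2 and Wwc1, the scaffold KIBRA, which had 0 Control UMIs and was at least 3.26-fold higher. Wwc1 too passed the filter through YAP5SA libraries alone. Amot, Amotl2, Lats2 and Wwc1 encode proteins that restrain YAP. The YAP targets summed to 23660, 28888.5 and 27752 CPM in YAP5SA members and to 2846, 17641 and 8995 CPM in Control members. Without Control enriched 6 of the targets and 1 Hippo component were called, and without Control tissue-3 5 and 0. Leaving out Control tissue-2 gave 10 and 3.

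Promoter sequence is shown for the YAP target genes Amotl2 and Crim1 and for Acta2, which rose in the cluster, since TEAD factors bind a short DNA motif, GGAATG. These promoters were picked after their values were seen, so a match in each does not measure how common the motif is. The bases are the 250 before the RefSeq start on GRCm38.p6, 5′ to 3′ on the gene's strand, and capitals mark GGAATG or its reverse complement CATTCC. Amotl2 lies at chr9:102717554-102717803 on the plus strand, Crim1 at chr17:78199998-78200247 on the plus strand and Acta2 at chr19:34255374-34255623 on the minus strand.
Amotl2: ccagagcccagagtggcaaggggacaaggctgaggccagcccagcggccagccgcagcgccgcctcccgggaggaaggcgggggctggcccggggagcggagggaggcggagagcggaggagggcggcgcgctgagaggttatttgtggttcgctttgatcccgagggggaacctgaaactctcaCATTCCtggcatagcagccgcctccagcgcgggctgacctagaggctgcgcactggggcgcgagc
Crim1: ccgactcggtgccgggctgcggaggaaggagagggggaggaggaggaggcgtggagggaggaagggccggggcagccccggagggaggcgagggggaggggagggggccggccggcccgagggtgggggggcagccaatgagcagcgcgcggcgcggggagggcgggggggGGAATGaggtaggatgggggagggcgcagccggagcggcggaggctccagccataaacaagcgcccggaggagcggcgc
Acta2: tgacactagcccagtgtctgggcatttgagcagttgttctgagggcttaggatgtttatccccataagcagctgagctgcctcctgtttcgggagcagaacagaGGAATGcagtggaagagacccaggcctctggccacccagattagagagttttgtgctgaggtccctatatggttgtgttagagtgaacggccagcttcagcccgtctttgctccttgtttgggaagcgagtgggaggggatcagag
Each of these windows holds the motif at 1 place, which starts at -65, -79 and -146 bases from the start of Amotl2, Crim1 and Acta2. Of the 65 genes named by the rule and called, 49 had a sequence in the RefSeq table. The motif stood in 8 of the 32 higher genes (25%), in 1 of the 17 lower genes (5.88%) and in 14.4% of all 27025 genes of the table, on either strand, counting a gene with several starts if any window held it. The 1 lower gene with a match is Myh6, at -206. The windows of Cemip, Rrm2 and Col4a4 hold no match. A match is a description of letters and not a binding site.

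Part of the cell division genes rose in YAP5SA members. Of 33 tested G2/M phase genes 15 rose and 0 fell, of 56 found, with a median of 2.35, or 1.64 with members at 0 in Control set to their bound. Of 13 tested S phase genes 3 rose and 0 fell, of 43 found, with medians of 1.65 and 1.38. Both counts compare with 5.09% of all genes called higher. Of the genes found, 23 G2/M and 17 S phase genes had no Control UMI, and of those tested 7 and 3. These 7 and 3 passed the filter on low counts through YAP5SA libraries alone, so the counts of calls lean partly on them. Mki67, the proliferation marker Ki-67, had 72.6, 178 and 128 CPM in YAP5SA members and 0, 0 and 47.7 CPM in Control members (log2 fold change 2.83, SE 0.74, edgeR adjusted p = 0.0103). The Control value was 4 UMIs, all in 1 cell of tissue-3. Ube2c, which helps the anaphase-promoting complex, had 118, 89.8 and 97.1 CPM in YAP5SA members and 0, 6.84 and 11.9 CPM in Control members, a rise of 3.31 (SE 0.83, edgeR adjusted p = 0.007). Hmmr, a protein of the mitotic spindle, rose by 4.26, and Anln, anillin of the contractile ring, by 3.13. Mcm5, a subunit of the replicative helicase, had 0 Control UMIs and was at least 2.42-fold higher. Of 10 G1 regulators tested 1 rose, cyclin D3 (Ccnd3, 1.94), and 0 fell. All found G2/M genes summed to 3073, 3350 and 3235 CPM in YAP5SA members and to 924, 1450 and 1121 CPM in Control members, without overlap. Without Control enriched 4 G2/M genes were called, and without Control tissue-2 1. For S phase genes, leaving out any 1 of the Control libraries left 1 call.

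The authors' phase calls put 96 of 481, 39 of 212 and 44 of 203 YAP5SA members in S or G2M, against 0 of 16, 0 of 50 and 2 of 33 Control members. A count of 0 allowed a share of up to 20.6% in Control enriched and 7.11% in Control tissue-2 (exact Clopper-Pearson 95% bounds, counting error alone). The shares averaged 20.01% ± 1.64 in YAP5SA and 2.02% ± 3.50 in Control (SD, n = 3 libraries each), without overlap. Their difference of 17.99 points had p = 0.1667 in the exact two-sided permutation test, again the smallest p possible. Phase calls rest on the same genes, so they are no separate measure of division. In cells called G1 alone 335 of 5202 genes were called (6.44%), and 9 YAP targets rose. There edgeR called 0 of 10 G2/M genes and 0 of 3 S phase genes tested, with 4 and 2 at an unadjusted p under 0.05. Their medians were -0.02 and -1.60. The G1 call rests on such genes itself, so it narrows their difference by selection. Nothing is read from their loss of calls. Thinned to 1000 UMIs per cell, 84.4%, 86.1% and 83.0% of YAP5SA members and 68.8%, 88.9% and 65.4% of Control members had a UMI of the 99 S and G2/M genes found. The thinning kept 441, 180 and 182 YAP5SA members and 16, 45 and 26 Control members, those with enough UMIs. The difference of 10.14 points had p = 0.5 in the exact two-sided permutation test, and without thinning the shares were 95.01%, 93.4% and 94.1% in YAP5SA and 87.5%, 90.0% and 75.8% in Control. Endothelial cells, with library medians of 1008 to 1472 UMIs, gave 81.8% to 97.5% at the same depth. In each library the share in members lay below that in endothelial cells, and no difference between genotypes is read from it.

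Of 37 actin cytoskeleton genes tested 11 rose in YAP5SA members and 1 fell, with a median of 1.20. Of all genes, 5.09% were called higher. Without Control tissue-2 18 of the list rose. Acta2, smooth muscle actin, had 4654, 4083 and 3535 CPM in YAP5SA members and 37.0, 342 and 441 CPM in Control members (log2 fold change 3.67, SE 0.70, edgeR adjusted p = 0.000362). Every YAP5SA library lay above every Control library. Pak3, a p21-activated kinase that Rac and Cdc42 switch on, had 213, 357 and 690 CPM in YAP5SA members, against 0, 6.84 and 0 CPM in Control members, which is 1 UMI, a rise of 6.63 (SE 0.97, edgeR adjusted p = 6.77e-06). Pmp22, a membrane protein known from myelin, had 907, 1311 and 1594 CPM in YAP5SA members and 37.0, 41.0 and 59.7 CPM in Control members, a rise of 4.52 (SE 0.69, edgeR adjusted p = 1.66e-05). Ezr, ezrin, which ties actin to the membrane, rose by 2.88, and the non-muscle myosin heavy chain Myh9 by 2.43. The smooth muscle markers Tagln (3.41) and Myh11 (3.28) also rose, but another cell class held over 5-fold more of both, and of Tpm2, the 1 actin list member that fell (-1.998). The 7 smooth muscle markers, which include Acta2, summed to 4827, 4437 and 3823 CPM in YAP5SA members and to 148, 533.5 and 573 CPM in Control members, against 7068 to 12319 CPM in smooth muscle cells. The part of smooth muscle RNA in these genes was not tested.

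Matrix and adhesion genes and some secreted signals followed. Of 36 matrix and adhesion genes tested 10 rose and 0 fell, against 5.09% of all genes called higher, with a median of 0.91. Among these 36, 2 had no Control UMI and passed the filter on low counts through YAP5SA libraries alone. Without Control tissue-2, 14 of 39 rose and 3 fell, with a median of 1.78. Lox, which crosslinks collagen, had 230, 508 and 537 CPM in YAP5SA members and 0, 27.4 and 0 CPM in Control members, a rise of 4.74 (SE 0.78, edgeR adjusted p = 5.22e-05). Col4a4, the partner chain of Col4a3, had 160, 341 and 299 CPM in YAP5SA members and 0, 0 and 47.7 CPM in Control members, a rise of 3.87. Mcam, an adhesion molecule, rose by 4.48, Col12a1 by 4.15 and the integrin subunits Itga3 and Itga7 by 2.54 and 2.44. Of 18 secreted signals tested 4 rose and 0 fell, with a median of 1.34, and 2 rose without Control enriched. Among these 18, 1 had no Control UMI, and with it set to its bound the median was 1.29. Without Control tissue-2, 7 of 21 rose and 1 fell. Csf1, the growth factor of macrophages, had 425, 789.6 and 679 CPM in YAP5SA members and 111, 20.5 and 23.9 CPM in Control members (log2 fold change 3.88, SE 0.70, edgeR adjusted p = 0.000164). The Control enriched value rests on 3 UMIs. Pdgfa rose by 2.28 and Tgfb3 by 2.04, and Ccl2, a monocyte attractant that rose by 2.70, lay more than 5-fold below another cell class.

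**Figure D2:**
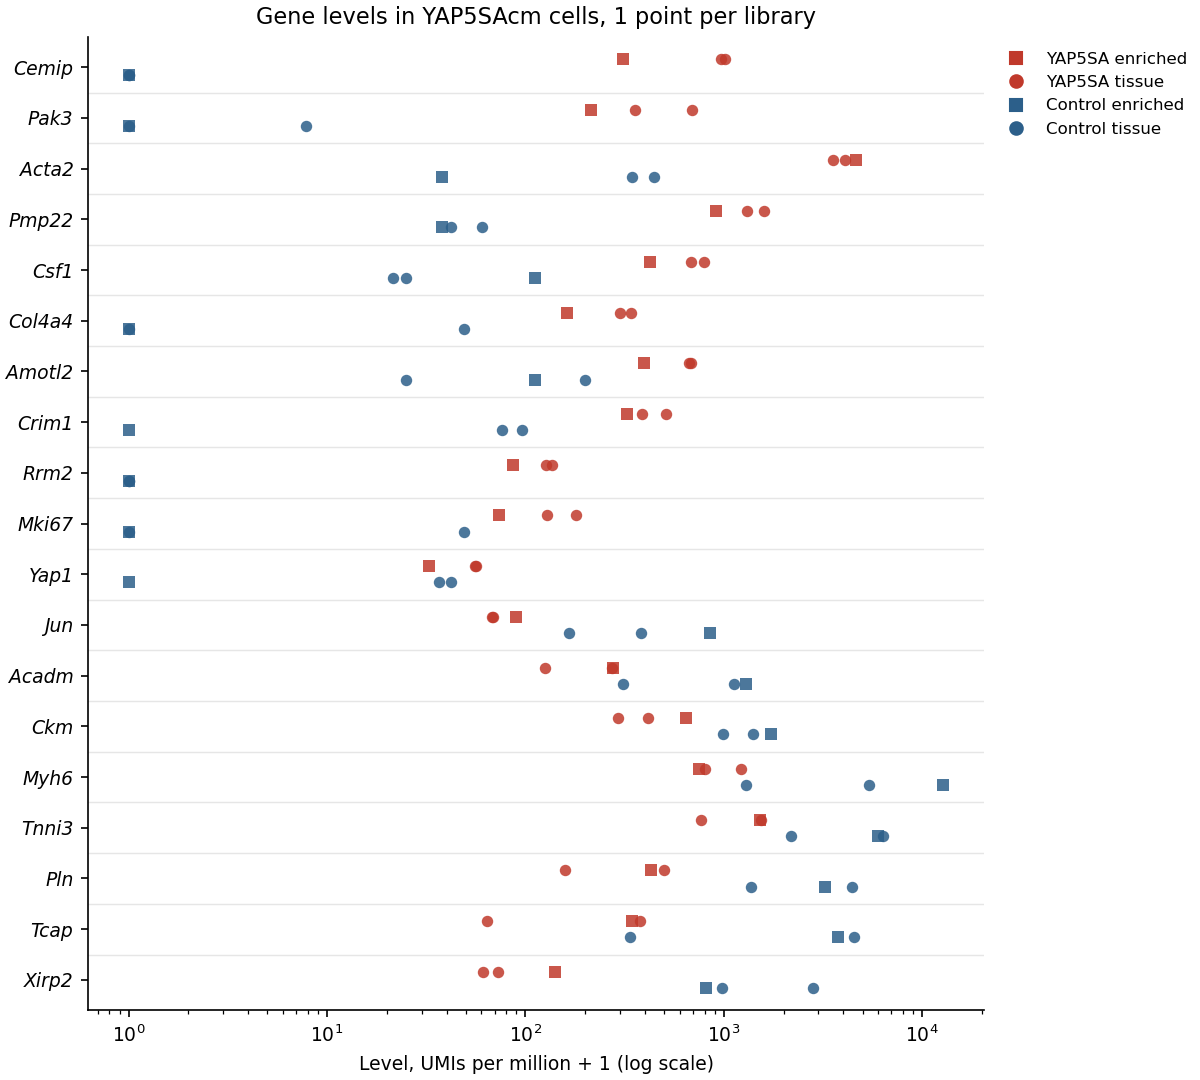
Level of 19 genes in YAP5SAcm cells as CPM plus 1 on a log scale, 1 point per library, with YAP5SA in red above Control in blue for each gene, squares for enriched and circles for tissue libraries. From Cemip to Mki67 all 3 YAP5SA points lie to the right of the Control points, and from Jun to Xirp2 to the left with the exception of Tcap, for which Control tissue-2 lies among the YAP5SA points; those of Yap1 overlap.

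Of 27 sarcomere genes 10 fell in YAP5SA members and 0 rose, with a median of -1.60, against 2.57% of all genes called lower. Xirp2, an actin-binding protein of the intercalated disc, had 140, 60.3 and 71.5 CPM in YAP5SA members and 813, 2825 and 978 CPM in Control members (log2 fold change -4.38, SE 0.68, edgeR adjusted p = 2.75e-05). Tcap, the titin cap, had 344, 375 and 62.9 CPM in YAP5SA members and 3770, 335 and 4522 CPM in Control members, a change of -3.79 (SE 0.99, edgeR adjusted p = 0.0403). For Tcap, Control tissue-2 lay among the YAP5SA libraries before scaling, and library totals alone gave -3.462 (edgeR adjusted p = 0.124). Myh6, the main adult myosin heavy chain, had 750, 1219 and 799 CPM in YAP5SA members and 12789, 1286 and 5404 CPM in Control members, a change of -2.80. Tnni3, cardiac troponin I, fell by 2.21 and Ckm, muscle creatine kinase, by 1.92. The list summed to 71430, 56710 and 49964 CPM in YAP5SA members and to 91742, 116947 and 96469 CPM in Control members. In the same libraries, CM1 to CM3 summed to 115914, 108830 and 105338 CPM in YAP5SA cells and to 148385, 152700 and 131182 CPM in Control cells. The sum of Control members lay below that of CM1 to CM3 in the same library in all 3 Control libraries. Without Control tissue-3 2 sarcomere genes were called lower, and without Control enriched 5.

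Of 14 calcium handling genes 5 fell and 0 rose, against 2.57% of all genes called lower, with a median of -0.95. Pln, phospholamban, which inhibits the calcium pump, had 428, 496 and 157 CPM in YAP5SA members and 3253, 1368 and 4402 CPM in Control members (log2 fold change -3.37, SE 0.65, edgeR adjusted p = 0.000434). The pump gene Atp2a2 fell by 1.81, the release channel Ryr2 by 1.59, and Hrc and Asph, proteins of the calcium store, by 2.81 and 2.49. Without Control enriched or Control tissue-3, 3 of the list fell in each case. Other genes among the 10 largest falls that the naming rule took were Asb2, a ubiquitin ligase subunit of muscle (-3.65), Kcnk3, a potassium channel (-3.53), and Mtfp1, which acts in mitochondrial fission (-2.92). The 10 also held Fsd2 (-3.40), Cmya5 (-3.19) and C130080G10Rik (-3.14), and Control tissue-2 overlapped the YAP5SA libraries for Cmya5.

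Metabolic genes moved less evenly. Of 24 fatty acid oxidation genes 6 fell and 0 rose, against 2.57% of all genes called lower, with a median of -1.16. Among the 6 were the dehydrogenases Acadm (-2.27) and Hadh (-2.06). Of 48 nuclear genes of oxidative phosphorylation edgeR called 0 in either direction, with 11 at an unadjusted p under 0.05, while DESeq2 called 13, all lower. Their median was -0.81, and 21 lay lower without overlap between genotypes, against 8.04% of all tested genes. Their smallest p belonged to Ndufs1 of complex I (-1.39, edgeR adjusted p = 0.083, DESeq2 adjusted p = 0.0457) and Sdhb of complex II (-1.48, edgeR adjusted p = 0.091, DESeq2 adjusted p = 0.00493). Of 9 mitochondrially encoded genes 4 fell, mt-Nd5, mt-Nd6, mt-Rnr1 and mt-Rnr2, with a list median of -1.68, and DESeq2 called all 9 lower. These genes summed to 88345, 70133 and 82072 CPM in YAP5SA members and to 364308, 127290 and 250048 CPM in Control members. Without Control enriched or Control tissue-3, edgeR called 0 of these 9 genes, with 8 and 4 at an unadjusted p under 0.05, and 1 fatty acid oxidation gene in each case. In glycolysis 1 of 17 genes rose, the glucose transporter Slc2a1 (3.04), and 2 fell, the muscle enzymes Pfkm (-2.59) and Eno3 (-1.66). Of all genes 5.09% were called higher and 2.57% lower, and nothing is read about the list from the 1 rise.

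Since the mitochondrial share moved with genotype, cells with a share under 20% were compared alone, which left out Control enriched for having 2 such cells. The preparation term then took up YAP5SA enriched, so the genotype effect rested on the tissue libraries. In this fit 432 of 8249 genes were called (5.24%), 291 of them among the main calls, and all 464 main calls tested kept their direction. Of the mitochondrially encoded genes edgeR then called 0 of 9, with 0 at an unadjusted p under 0.05 and a median of -0.62. The limit was set on the share of mitochondrial genes itself, so it narrows their difference by selection. Nothing is read from their loss of calls. Of the fatty acid oxidation genes 1 fell and 1 rose. In the sarcomere list 8 genes fell, and among YAP targets 10 rose. With only cells that the earlier grouping had in CM, Y5SA1 or Y5SA2, which again left out Control enriched, 477 of 8446 genes were called (5.65%), 332 of them among the main calls. In those cells 13 sarcomere genes fell, 10 YAP targets and 14 G2/M genes rose, and 1 mitochondrially encoded gene fell. Here too the genotype effect rested on the tissue libraries.

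Of 16 immediate early genes, which respond to cell stress and handling, 7 fell and 0 rose, with a median of -1.67. This compares with 2.57% of all genes called lower. Egr1 fell by 2.74, Jun by 2.70 and Ier2 by 2.60, and Jun, Ier2, Junb, Atf3 and Nr4a1 lay more than 5-fold below another cell class. Their list summed to 2059, 2086 and 2860 CPM in YAP5SA members and to 5360, 2278 and 4617 CPM in Control members. Endothelial markers too were lower in Control tissue-2 than in the other Control libraries, and their part in this list was not tested. With the earlier cardiomyocyte groups alone the median was -0.38 and 4 fell, and without Control tissue-3 it was -0.31 and 4 fell. Other programmes gave few calls or none. Of 9 interferon response, 22 stress and proteostasis and 15 cardiac transcription factor genes tested, edgeR called 0 in either direction, with 1, 8 and 3 at an unadjusted p under 0.05, and DESeq2 called 0, 1 and 0. Their medians were -0.07, 0.35 and 0.34. With library totals alone 2 stress and proteostasis and 2 cardiac transcription factor genes rose, and the interferon median was 0.22. In the earlier cardiomyocyte groups alone 1 stress and proteostasis gene rose and 3 fell. Without Control tissue-2, 2 of 16 interferon genes fell and 1 stress and proteostasis gene rose. Of 15 fetal and stress genes 3 rose (Acta2, Tagln and Myh9) and 1 fell (Xirp2), against 5.09% and 2.57% of all genes called higher and lower. The list's median of -0.01 turned to 0.32 with library totals alone. With the earlier cardiomyocyte groups alone 4 of 17 rose and 6 fell, with a median of -0.73, and under the limit on mitochondrial share 3 of 17 rose and 5 fell. Without Control tissue-3 3 rose and 3 fell, and without Control enriched 2 fell. Nppa, the atrial natriuretic peptide, overlapped widely, with 8856, 2374 and 2296 CPM in YAP5SA members and 1257, 15520 and 4235 CPM in Control members. Nppb and Acta1 did not pass either, and for Nppa, Nppb and Acta1 alike Control tissue-2 held the highest Control value.

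A list of 35 genes that an earlier analysis of these libraries had picked for their genotype difference in all cardiomyocytes was followed as well, so its direction is not independent evidence. Of 29 tested inside the cluster 18 rose and 6 fell, against 5.09% and 2.57% of all genes called higher and lower. Serpinb9b (4.405), Plcxd2 (4.67) and Fam107b (5.45) rose, with 6, 1 and 1 UMIs over all Control members. Tuba8, a tubulin, fell by 3.92.

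**Figure D3:**
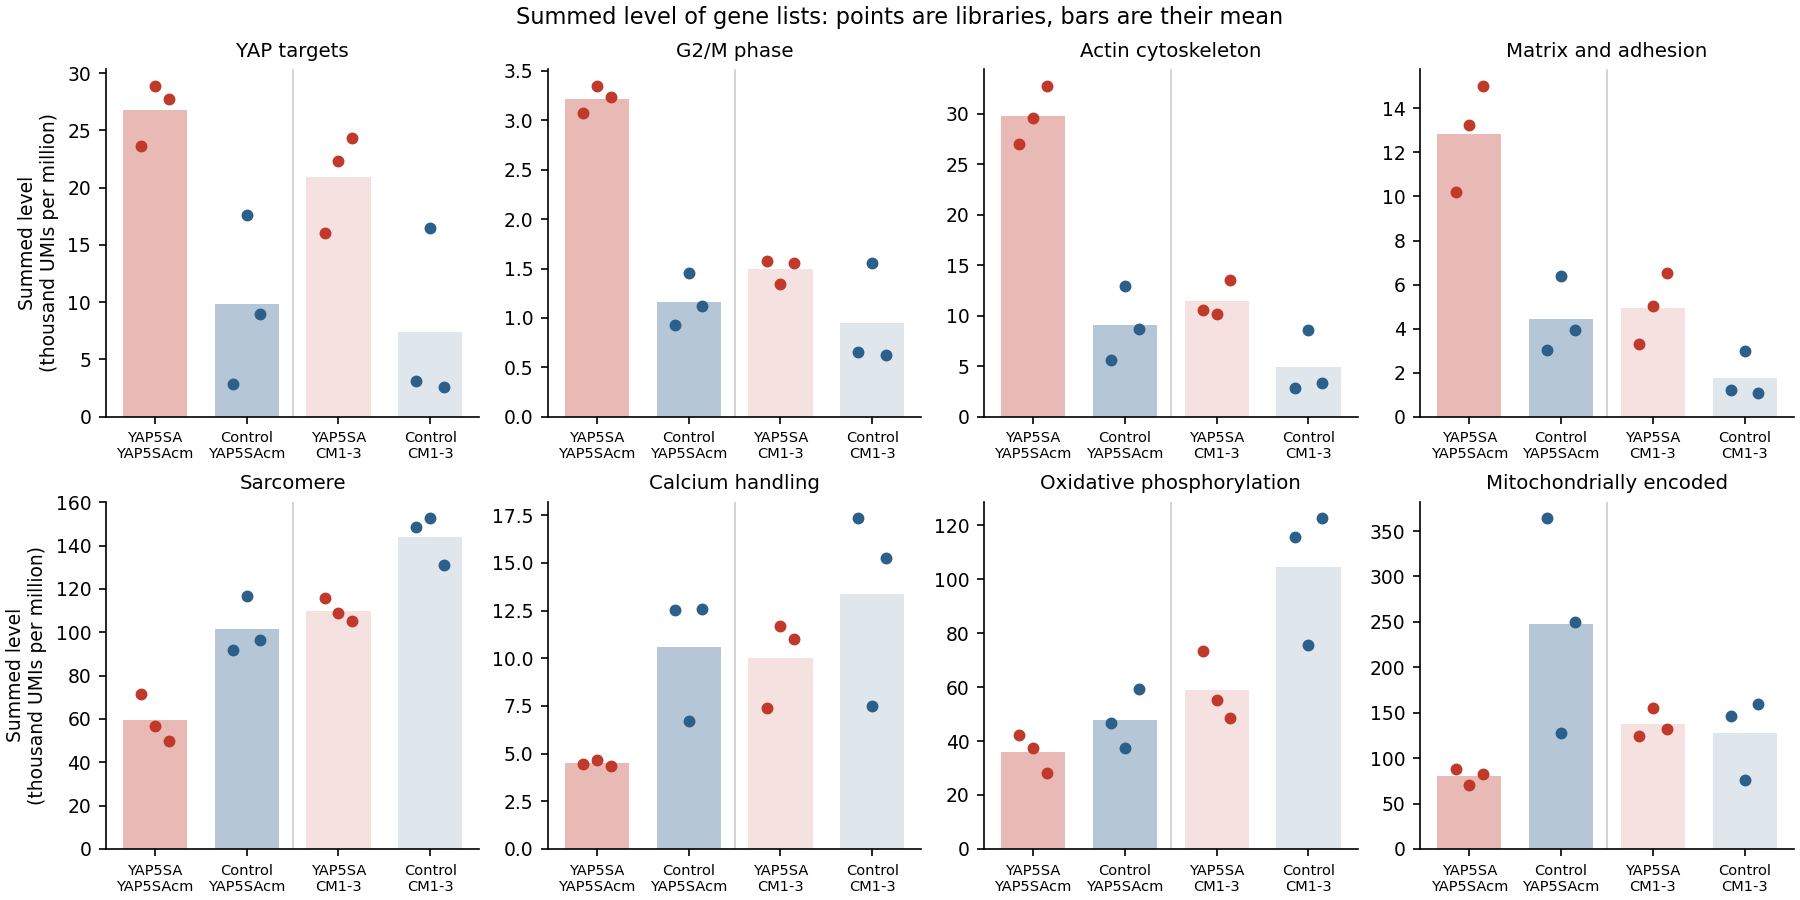
Summed level of 8 gene lists in CPM (axis in units of 1000), for YAP5SAcm cells (left of each panel) and CM1 to CM3 cells (right), with YAP5SA in red and Control in blue; points are libraries and bars their mean. Within YAP5SAcm the YAP5SA points lie above all Control points in the upper row, and below them for sarcomere, calcium handling and mitochondrially encoded genes.

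The same contrast in CM1 to CM3 gives a scale for these differences. There 17 of 9403 genes were called (0.181%), all higher in YAP5SA, with 1686 at an unadjusted p under 0.05. Some list medians there were larger in size than inside the cluster: actin cytoskeleton 1.56, matrix and adhesion 1.49, oxidative phosphorylation -1.31 and fatty acid oxidation -1.34. Others were smaller: YAP targets 1.56, G2/M 0.80, sarcomere -0.75, calcium handling -0.24 and mitochondrially encoded genes -0.43. The genes behind these medians are not all the same, with 33 G2/M genes tested in the cluster and 20 in CM1 to CM3. The G2/M median of 2.35 in the cluster was 1.64 with members at 0 in Control set to their bound. Cemip had 594 CPM over all YAP5SA members and 16.3 CPM over YAP5SA cells of CM1 to CM3, and 0 UMIs in Control in both. It was among the 17 genes called in CM1 to CM3 too (edgeR adjusted p = 0.0336). With 0 Control UMIs in both, no difference in effect can be read for Cemip, and it did not pass the test of the difference. For some lists, though not for sarcomere genes, Control tissue-2 lay near the YAP5SA cells of CM1 to CM3. There YAP targets summed to 16022, 22319.5 and 24369.5 CPM in YAP5SA and to 3078, 16505 and 2589 CPM in Control. Calcium handling genes summed to 7384, 11668 and 11008 CPM in YAP5SA and to 17352, 7479 and 15240 CPM in Control. The part of Control tissue-2 in the count of 17 was not tested. Whether the genotype effect inside YAP5SAcm differs from that in CM1 to CM3 was tested directly, with each library as its own block. Of 8908 genes 113 differed (1.27%), 47 with a higher effect in YAP5SAcm (0.528%) and 66 with a lower one (0.741%), and 1018 had an unadjusted p under 0.05. Sarcomere genes made up 6 of the 66 (Myh6, Myh7, Ttn, Mybpc3, Tcap and Xirp2, of 27 tested), calcium handling 4 (Ryr2, Atp2a2, Pln and Sln, of 15) and mitochondrially encoded genes 4 of 9. In YAP targets 1 of 25 differed (Igfbp3, higher), in G2/M 1 of 44 (Cenpa, higher) and in S phase 0 of 28, with 5 at an unadjusted p under 0.05 in edgeR. For Igfbp3 the difference was 8.645 (SE 2.52), and its fitted effect in the cluster was 8.589. Named genes had fitted effects of that size only over 0 Control UMIs, so no size is read for Igfbp3.

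Xirp2 differed most clearly among genes tested in both. Its genotype effect was -4.38 in the cluster and 0.02 in CM1 to CM3, where it had 619, 338 and 613 CPM in YAP5SA cells and 366, 548 and 234 CPM in Control cells (difference -4.22, SE 0.36, edgeR adjusted p = 1.52e-27). Ttn, titin, the giant spring of the sarcomere, had 2101, 1964 and 2089 CPM in YAP5SA members and 7245, 3967 and 3901 CPM in Control members. In CM1 to CM3 it had 2162, 5386 and 5486 CPM in YAP5SA cells and 3351, 1138 and 1743 CPM in Control cells, a difference in effect of -2.01 (SE 0.34, edgeR adjusted p = 5.31e-06). Neither effect passed the test on its own, at -1.50 in the cluster and 0.62 outside it. Unc45b, a chaperone of myosin, had effects of -2.84 in the cluster and -0.21 outside it. Vegfa, the vascular growth factor, had 134, 294 and 245 CPM in YAP5SA members and 73.9, 13.7 and 107 CPM in Control members, and did not pass the test inside the cluster alone. In CM1 to CM3 it had 34.4, 86.1 and 55.7 CPM in YAP5SA cells and 95.3, 63.5 and 71.9 CPM in Control cells. Its effect differed by 2.63 (SE 0.49, edgeR adjusted p = 9.82e-05). Ezr, Jam2, a junctional adhesion molecule, and Lsm3, an RNA-binding splicing protein, differed by 2.32, 2.06 and 3.44, and Cox7a2, a subunit of complex IV, by 1.76. Csf1 differed by 2.45 and Pmp22 by 1.89, while Acta2 (0.16), Amotl2 (-0.31), Mki67 (-0.39) and Acadm (0.09) did not pass the test of the difference. Without YAP5SA tissue-2 14 genes were called, without YAP5SA tissue-1 46 and without Control tissue-3 32. Leaving out Control tissue-2 gave 201. Cox7a2, Ezr, Ttn and Unc45b no longer passed without YAP5SA tissue-2, nor did Lsm3 without Control tissue-2.

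Sln and Nmrk2, which were too low to be tested inside the cluster, had large differences that rest on 1 library each. Sarcolipin (Sln), an inhibitor of the calcium pump, had 5, 5 and 9 UMIs in YAP5SA members and 0, 0 and 41 UMIs in Control members, where the 41 came from 2 cells of tissue-3. Its difference of -7.63 was -0.56 without Control tissue-3. Nmrk2, an enzyme of NAD synthesis in muscle, had 20, 8 and 4 UMIs in YAP5SA members and 0, 57 and 0 UMIs in Control members, and its difference of -4.17 became 2.04 without Control tissue-2.

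**Figure D4:**
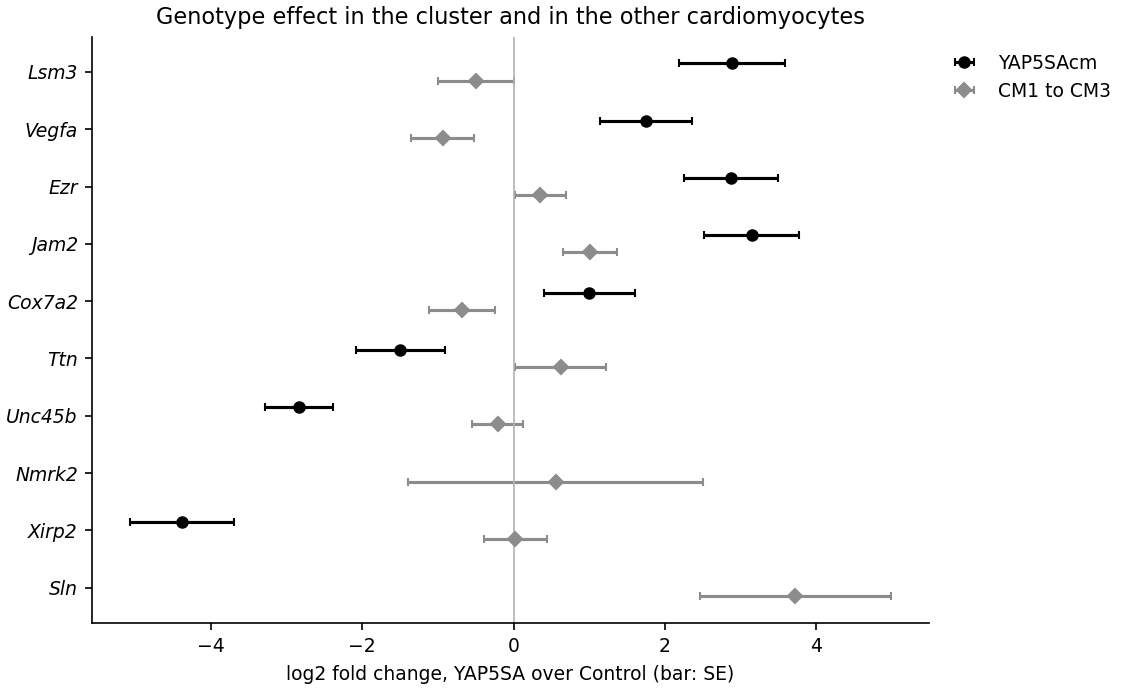
Log2 fold change of YAP5SA over Control, with its SE, in YAP5SAcm (black circles) and in CM1 to CM3 (grey diamonds) for the 10 genes whose effect differed most clearly between them, 5 in each direction. Xirp2 lies at -4.38 in the cluster and 0.02 outside it; Sln and Nmrk2 have no black point because they were not tested inside the cluster.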

How the data were processed

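The deposited files hold raw UMI counts per gene and cell, and the authors' annotation gives each cell its library, cluster, phase and mitochondrial share as a fraction of UMIs, which the authors computed before deposit. Picard, STAR and Seurat 2.3.4 are named in the submitters' processing notes; the genome build and annotation are not given in the sources used here. Libraries are called by the authors' names for them. Counts of the member cells were summed per library. Of 22281 row names, 852 join overlapping genes with a hyphen and occur in some libraries only, so the genes of each of 674 such families were merged, which left 21208 features; 1211 features that had counts in only 1 of the annotation styles stayed out of the tests. Sums were tested with edgeR 4.0.16 (R 4.3.3) by its quasi-likelihood test, with TMM scaling, the filterByExpr filter on low counts, preparation as covariate and Benjamini-Hochberg adjustment over all genes tested. DESeq2 1.42.0 was an alternative. The difference in effect between YAP5SAcm and CM1 to CM3 was tested in edgeR with library as block. The scripts were tested on simulated data. No doublet caller was run and no cell was removed. Intervals cover counting error only. Named genes were the genes of the transgene list, the 10 largest fold changes in each direction among called genes whose average log2 CPM reached 5 and whose sign was shared by both preparations, the 2 smallest p-values of each list, the list picked earlier for cardiomyocytes, and the 5 smallest p-values in each direction for the difference in effect. Other list members, and the promoters shown, were picked after their values were seen. Members and lists were chosen with earlier results of these data known. Promoters come from RefSeq. Figures used matplotlib 3.10.9. 1 gene that the naming rule took is not reported here.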

Additional observations from a re-analysis of the deposited data

Results flagged for a closer look

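These results were singled out because the genotype effect inside YAP5SAcm differed from that in CM1 to CM3 in edgeR's test of the difference itself. The difference was positive for Vegfa (2.627), Cox7a2 (1.761), Jam2 (2.059), Ezr (2.323) and Lsm3 (3.445). It was negative for Xirp2 (-4.216), Sln (-7.632), Nmrk2 (-4.169), Ttn (-2.011) and Unc45b (-2.47). The values of Sln and Nmrk2 rest on Control tissue-3 and Control tissue-2. Egfp lay outside the tests and had 143 UMIs in members of YAP5SA tissue-1 and 131 in those of YAP5SA tissue-2, against 0 UMIs in each Control library. YAP5SA enriched had 0 UMIs too, and it shares its way of annotation with Control tissue-3.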

How the results depend on the processing

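The count of 465 genes moved to 91 in tissue libraries alone, 98 with 16 cells per library, 97 with YAP5SA sums thinned, and 0 in cells with no UMI of macrophage and fibroblast markers (107 of 530 at an unadjusted p under 0.05 in edgeR, 12 called by DESeq2, YAP5SA tissue-2 left out for its 6 cells); the last 3 tested far fewer genes. Leaving out 1 library gave 0 to 549 genes, and 14 to 201 in place of 113 for the difference in effect. It gave -4.318 to 2.042 for Nmrk2, which reversed without Control tissue-2. With RLE, DESeq2, no filter, no preparation term or unmerged names the count was 377 to 595, and 387 in the 4 libraries with joined names alone, where all 461 main calls tested kept their direction. The differences in cycling and mitochondrial share kept their direction in every alternative run. Chosen after seeing the data were the fits with unmerged names, with the limit on mitochondrial share, with the earlier groups, without mitochondrial genes, and with joined-name libraries alone. No paired analysis was possible because 1 of the YAP5SA tissue libraries is numbered 1 in the table of cells while its label has another number, so that matching numbers join only 1 pair of libraries, and the fit with replicate number as a block was not run. Control depth limits the test, since 257068 UMIs stood behind all Control members.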
